A study of Mus musculus with 265 samples.

Results

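Chromatin accessibility at the genes of the Polycomb repressive complexes was read from the single-cell ATAC-seq matrix of mouse pre-B cells. The genes named were Ezh1, Ezh2, Eed, Suz12, Jarid2, Bmi1, Rnf2, Ring1, Cbx2 and Phc1. A region was taken as a member when its nearest protein-coding start site (GENCODE vM21, mm10) belonged to one of these genes and lay within 50 kb. This gave 16 of the 20103 regions in the matrix, at 9 of the 10 genes, and Bmi1 had none. Each region is named here by its gene and, where a gene had several, by the distance in bp of its midpoint from the gene's start, with + for downstream and - for upstream.

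The cells were of the B3 line, a mouse pre-B cell line carrying an inducible fusion of Ikaros to ERt2, a modified estrogen receptor domain that responds to 4-hydroxytamoxifen. All cells compared carried this fusion. Cells of the 0-hour group were taken before induction, and cells of the 24-hour group after 24 hours of 4-hydroxytamoxifen, labelled as 20 mM, with another dose at about 12 hours. The Fluidigm C1 captured the cells in 4 runs, with 48 and 47 cells at 0 hours (runs 1 and 2) and 60 and 72 cells at 24 hours (runs 3 and 4). There was no group of fusion-free cells given the drug among the samples used, so the fusion, the drug and the time in culture cannot be told apart. No source used here says that the runs were separate cultures, so the tests measure only the spread between runs, which may be technical.

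Polycomb proteins keep developmental genes silent by modifying histones. Polycomb repressive complex 2 (PRC2) methylates lysine 27 of histone H3 through its catalytic subunit, Ezh2 or Ezh1, held together by Eed and Suz12 and guided in part by the accessory factor Jarid2. Polycomb repressive complex 1 (PRC1) ubiquitinates histone H2A through the ring-finger proteins Rnf2 and Ring1, paired with a partner such as Bmi1, and its canonical form reads the methyl mark through chromodomain proteins such as Cbx2 and contains Phc1. In B cell precursors, Ezh2 is known to be needed for rearrangement of the heavy-chain locus. An open start site in these data is a measure of chromatin, not of the level of transcript or protein.

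Sequences of 5 member regions are shown: Suz12 and Ezh2, which held the strongest signal, and the Jarid2 regions within 1 kb of a transcript start. They were read from the RefSeq sequence of GRCm38, the build of the regions, on the forward strand, 5′ to 3′, with the coordinates in the region names taken as counted from 1. Bases annotated as untranslated were left out, so the Ezh2 and Jarid2 +1819 sequences are stretches of their regions. Capitals mark matches on either strand to GGGAA, the core bound by Ikaros proteins, CCGGAA, the core of ETS factors, or CCAAT, the core of NF-Y.
Suz12, chr11:79992899-79993053: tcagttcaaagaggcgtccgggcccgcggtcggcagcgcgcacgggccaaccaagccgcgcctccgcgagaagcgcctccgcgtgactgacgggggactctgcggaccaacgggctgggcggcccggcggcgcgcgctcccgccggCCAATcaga
Ezh2, chr6:47595059-47595178: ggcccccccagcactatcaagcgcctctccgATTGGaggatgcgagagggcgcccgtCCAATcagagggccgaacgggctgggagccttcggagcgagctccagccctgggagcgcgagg
Jarid2 +1197, chr13:44730630-44730713: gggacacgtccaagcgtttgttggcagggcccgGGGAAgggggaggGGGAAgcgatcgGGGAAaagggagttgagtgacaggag
Jarid2 +1640, chr13:44731053-44731176: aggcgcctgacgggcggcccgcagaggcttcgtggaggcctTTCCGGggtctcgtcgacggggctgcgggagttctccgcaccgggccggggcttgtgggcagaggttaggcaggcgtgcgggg
Jarid2 +1819, chr13:44731219-44731270: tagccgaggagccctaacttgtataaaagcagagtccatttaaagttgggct

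No string searched contains another of them. In equal windows of 150 bp centred on each region, GGGAA was found in 4 of the 16 members (25%), against 39.2% of all regions and 38.0% of the 10088 regions within 1 kb of a protein-coding transcript start. Jarid2 +1197 held 4 copies in its window, of which 3 lie in the region and are printed above. CCGGAA was found in 2 members (12.5%), Jarid2 +1640 and Cbx2 +3467, against 14.6% of all regions and 22.7% of start-site regions. ATGGCG, the core of YY1, was in 1 member (6.25%), Ezh2, in bases not printed, against 6.74% and 10.6%. CCAAT, added after the sequences had been seen, was in 5 members (31.25%), against 22.5% and 29.6%, with 3 copies in the Ezh2 window and 1 in that of Suz12. The members were rich in G and C, with a median of 73% against 58% over all regions and 65.3% over start-site regions. Each of the 16 regions matched 1 place in the genome at 90% identity over 80% of its length.

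The runs held 92639 to 164357 counts in the 20103 regions, and run 1 was the deepest per cell, with a median of 2898 counts against 1676 to 1840 in the others. Shares of cells move with this depth, so for the regions the comparison turns on they are given beside the expected shares after thinning every cell to 837 counts. The fit to thinned cells used a single random draw of 837 counts per cell instead, and its direction may differ from that of the expected shares. Thinning left out 23 cells with fewer counts, of which 0, 1, 13 and 9 were in runs 1 to 4. No pair of cells had identical profiles, and no column name occurred in more than 1 run. Of the pre-B markers, 8 had a region within 1 kb of their start, but Rag1, Rag2 and Dntt had none. These marker regions were found 73, 50, 54 and 53 times in the cells of runs 1 to 4, a total over unlike markers: Igll1 was found in 12, 7, 3 and 0 cells, Vpreb1 in 7, 9, 2 and 1, Il7r in 8, 4, 1 and 1, and Ebf1 in 8, 4, 10 and 16. Of the T cell list 1 of 5 genes had such a region, Cd3d, found in 6, 3, 3 and 3 cells, and of the myeloid list 1 of 4, Lyz2, found in 2, 3, 0 and 1 cells. The erythroid list (0 of 3) and the stromal list (0 of 2) had none. The part of these values in the results below was not tested.

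The member regions were narrow, 63 to 155 bp, and sparse. They were detected in 6 to 43 of the 227 cells, with a median of 15, against 13 over all regions and 18 over start-site regions. The deposited matrix keeps only regions found in at least 5 cells. Of the members, 8 reached this number in both time-points. It was reached at 0 hours only by 3 (Eed -42304, Jarid2 +1819 and Cbx2 +3467). At 24 hours only it was reached by 4 (Ezh1, Ring1, Jarid2 +1640 and +4036), and in neither alone by 1 (Phc1 +1158). For those that reached it in 1 time-point only, the filter bears on the direction. Of the 16 regions, 12 lay within 1 kb of a protein-coding transcript start. Suz12 was found in 43 cells, more than or as many as 92.7% of start-site regions. Ezh2 and Rnf2 followed, each with 31 cells and a percentile of 79.9. At the other end, Jarid2 +1640 and Phc1 +1158 were found in 6 cells each, at a percentile of 7.72. Ring1 was found in 9 cells, and Cbx2 +36 in 19.

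**Figure D1:**
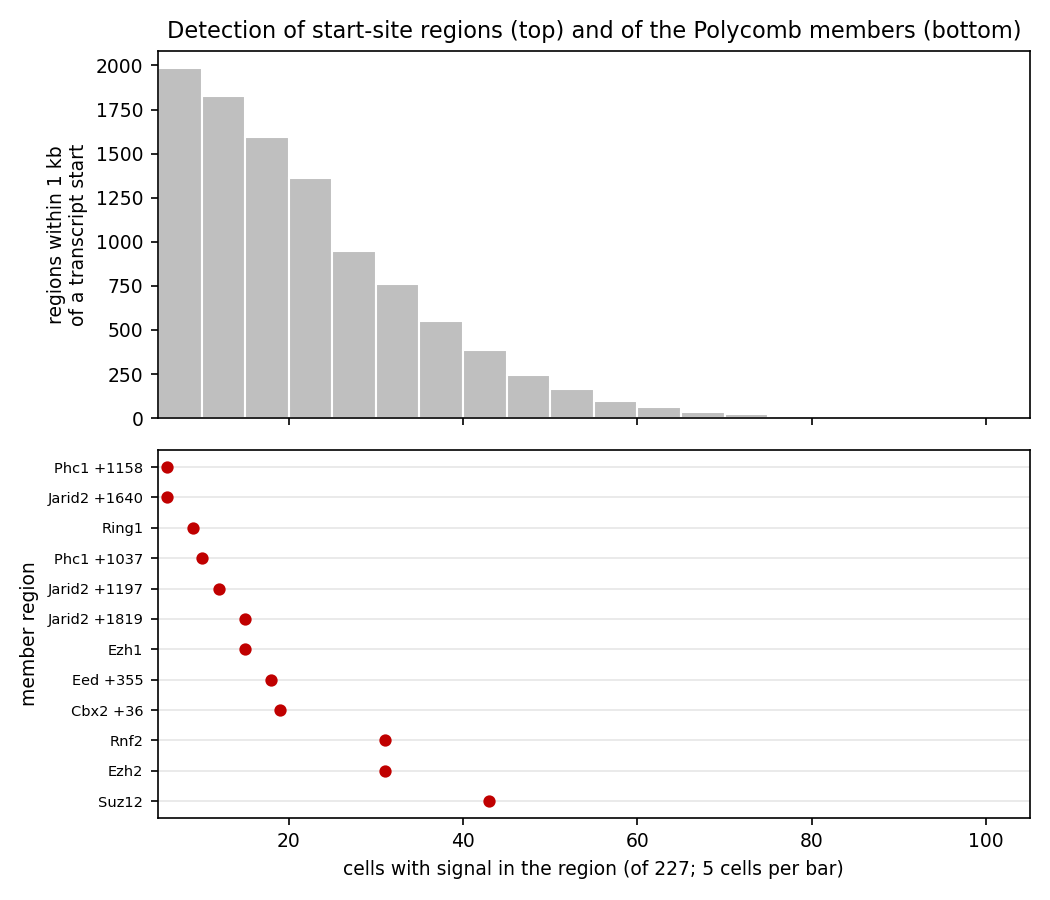
Top, number of regions within 1 kb of a transcript start by the number of cells in which they were detected (5 cells per bar); bottom, the 12 Polycomb members among them, one point each. Suz12 (43 cells) stands to the right of most start-site regions, and Jarid2 +1640 and Phc1 +1158 (6 cells) at the left edge.

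Levels were compared between regions as CPM (the summed counts of a run scaled to a common library size with TMM factors) per 100 bp of region (end minus start), averaged over the 4 runs. Suz12 was highest, at 79.5 ± 16.2 (SD, n = 4 runs), followed by Ezh2 at 62.3 ± 26.1, Rnf2 at 58.1 ± 11.7 and Jarid2 +4036 at 46.5 ± 38.8. The lowest were Ring1 at 16.1 ± 12.1 and Jarid2 +1640 at 12.5 ± 14.5. The other 10 regions lay between 17.9 and 33.5. In this order all 15 pairs of neighbours overlapped in their ranges over the runs, so the order of neighbours is not fixed by these data. Suz12 in its lowest run still exceeded 11 of the 15 regions below it in their highest run, and Rnf2 exceeded 6 of the 13 below it.

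**Figure D2:**
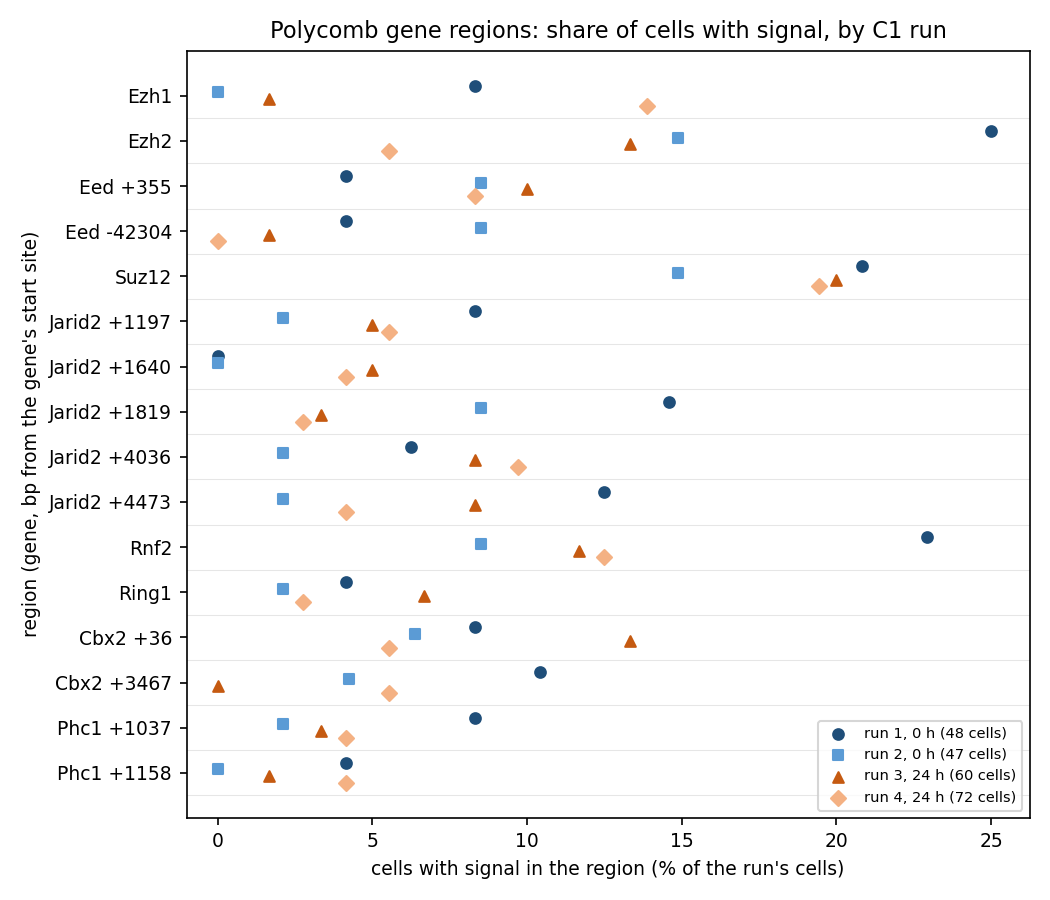
Share of the cells of each C1 run with signal in each of the 16 member regions (x axis, percent of the run's cells), with 1 point per run. Suz12 lies between 14.9% and 20.8% in all 4 runs, Ezh2 ranges from 25% in run 1 to 5.56% in run 4, and Jarid2 +1640 is at 0 in both 0-hour runs.

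The comparison of 24 hours with 0 hours asked whether accessibility at these genes differed after induction of Ikaros. No member region or gene passed the test. The sums of counts per run were tested with edgeR's quasi-likelihood test over the whole table. Of all 20103 regions, 11 passed at an adjusted p of 0.05 (0.0547%), and of the 16 member regions 0 did. At an unadjusted p under 0.05, 1 member region passed with edgeR, Jarid2 +1640, while 12.1% of all regions did. That region had no signal at 0 hours and entered the matrix through its 24-hour cells alone, so its p gives no support to a change. With DESeq2 the number was 0, against 5.40% of all regions. Summed per gene, 26 of 9900 genes passed (0.263%) and 0 of the 9 member genes did, with 0 at an unadjusted p under 0.05 by either tool. Over all genes, 12.5% had such a p with edgeR and 5.80% with DESeq2. The intervals around the changes are wide, and fold changes well above and below 1 lie inside them for most regions.

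Suz12, the PRC2 scaffold that holds the catalytic subunit, had 1 region ending just upstream of its start on chromosome 11, in the sequence above, outside the gene and its untranslated exons. Runs 1 and 2, at 0 hours, had signal in 20.8% and 14.9% of cells, and runs 3 and 4, at 24 hours, in 20% and 19.4%. The groups overlapped, and the shares were the most even of the well-detected members. Over time-points the share was 17.9% of 95 cells (exact Clopper-Pearson interval 10.8% to 27.1%) and 19.7% of 132 cells (13.3% to 27.5%). After thinning, the shares were 6.62%, 7.50%, 10.1% and 10.9%, so that runs 3 and 4 were then the higher ones. The normalized level was 91.0 and 115 CPM at 0 hours and 137 and 147 CPM at 24 hours. The log2 change was 0.48 (SE 0.57, 95% interval -0.67 to 1.63), with an adjusted p of 0.799 by the Benjamini-Hochberg method over all regions in edgeR's quasi-likelihood test. It was 1.38 in the fit to thinned cells and 0.04 with the number of cells per run as the scale.

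Ezh2, the main catalytic subunit of PRC2 in dividing cells, had values in the other direction. Its region, chr6:47595041-47595178, covers part of an untranslated first exon and the bases upstream of another annotated start. It was detected in 25% and 14.9% of cells at 0 hours and in 13.3% and 5.56% at 24 hours, in 12, 7, 8 and 4 cells. Both 0-hour runs were higher than both 24-hour runs, as in 33.7% of all regions, although run 2 and run 3 were close. The thinned shares were 8.33% and 8.92% at 0 hours and 6.83% and 2.20% at 24 hours, which also did not overlap. The normalized level was 112 ± 4.07 CPM at 0 hours and 58.8 ± 31.2 CPM at 24 hours (SD, n = 2 runs each). The log2 change was -0.93 (SE 0.69, 95% interval -2.31 to 0.45), with an adjusted p of 0.637 by edgeR's quasi-likelihood test. It stayed below 0 in each alternative in which it was recomputed, between -1.58 and -0.46, and passed the test in none.

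Ezh1, the second methyltransferase of the family and the one known from resting cells, was found in 15 cells, of which 4, 0, 1 and 10 were in runs 1 to 4. Its region, chr11:101226325-101226478, overlaps the first exon and its untranslated part. Run 4 alone held most of the cells, and the groups overlapped. The log2 change was 1.17 (SE 1.03, adjusted p = 0.708 by edgeR), and without run 4 it was -0.58. The region reached 5 cells at 24 hours only, so the filter bears on its direction. A count of 0 in runs 1 to 4 allows a share of up to 6.25%, 6.38%, 5% and 4.17%, so the value of 0 in run 2 does not set that run below run 3.

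Eed, the subunit that binds the methyl mark and activates the enzyme, had 2 regions. The one at its start, chr7:89980553-89980703 in an untranslated exon, was found in 4.17% and 8.51% of cells at 0 hours and in 10% and 8.33% at 24 hours. These shares overlapped, but after thinning they were 0.720%, 4.00%, 5.39% and 5.75%, with both 24-hour runs higher. The other, chr7:90023227-90023348, lay outside the gene, 42304 bp upstream, and was found in 2, 4, 1 and 0 cells. The listed shares were higher in both 0-hour runs, but the 0 in run 4 allows a share of up to 4.17%, as high as that of run 1, and after thinning run 1 and run 3 changed order. The log2 changes were 1.20 (SE 1.00) at the start and -1.97 (SE 1.48) upstream, with adjusted p of 0.682 and 0.642 by edgeR's quasi-likelihood test. With 1 run left out, the former ranged from 0.48 (without run 1) to 2.17 (without run 2), and the latter from -5.16 (without run 3) to -0.97 (without run 4). Leaving out run 3 leaves no signal at 24 hours in the upstream region. Summed over both regions, the change of Eed was 0.17 (SE 0.78), and without run 1 it was -0.49.

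Jarid2, the accessory subunit that links PRC2 to its targets, had more regions than any other member. Its 5 regions lay within the first part of the gene on chromosome 13, from chr13:44730630-44730713 to chr13:44733880-44734014. None was within 1 kb of the 5′ end of the gene record, but 3 were within 1 kb of an alternative transcript start. Jarid2 +1819 overlaps an untranslated exon and the other 4 lie in introns. Any of the 5 was found in 31.25%, 12.8%, 25% and 22.2% of the cells of runs 1 to 4, in 52 cells in all. Run 1, the deepest, was highest and run 2 lowest, so the groups overlapped. Of these 52 cells, 12 had signal in more than 1 region, and none in more than 2. The pair found together most often was +4036 and +4473, separated by 322 bp, in 4 cells.

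The Jarid2 regions +1819, +1640 and +4036 did not overlap between the time-points in their listed shares. Over all regions, 33.7% had both 0-hour runs higher and 8.59% had both 24-hour runs higher. These Jarid2 regions each reached the minimum of 5 cells only where they were higher, +1819 at 0 hours and the others at 24 hours. The filter therefore bears on these directions, and they are given as a description. Jarid2 +1819, centred 6 bp past an alternative start, was found in 14.6% and 8.51% of cells at 0 hours and in 3.33% and 2.78% at 24 hours. Both 0-hour runs were higher, and the thinned shares of 5.68%, 4.22%, 0.876% and 1.38% did not overlap either. Jarid2 +1640, the 124-base sequence printed above and 43 bp upstream of +1819, was found in 0 of 48 and 0 of 47 cells at 0 hours and in 3 of 60 and 3 of 72 cells at 24 hours. The 0 of 95 cells at 0 hours allow a share of up to 3.16%, and the 6 of 132 cells at 24 hours were 4.55% (exact interval 1.69% to 9.63%). All 6 cells were of the 24-hour group, so the region passed the minimum of 5 cells through that group alone, and its direction was set by that filter. The shares of 5% and 4.17% in runs 3 and 4 lie below the limits that a 0 allows in runs 1 and 2, so at this depth no single run is set apart from another.

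Jarid2 +4036 was found in 6.25% and 2.13% of cells at 0 hours and in 8.33% and 9.72% at 24 hours, so both 24-hour runs were higher, as they were after thinning (1.84%, 1.38%, 4.46% and 4.36%). Its log2 change was 1.91 (SE 0.98, 95% interval -0.06 to 3.87), and that of Jarid2 +1819 was -1.68 (SE 0.92, 95% interval -3.53 to 0.17). The change of +4036 was 0.32 in the fit to thinned cells, which rests on a single random draw. It ranged from 1.33 (without run 4) to 2.70 (without run 1) with 1 run left out. The adjusted p were 0.432 for +4036, 0.472 for +1819 and 0.316 for +1640, by edgeR's quasi-likelihood test. The remaining Jarid2 regions, +1197 and +4473, overlapped between the time-points as deposited, with log2 changes of 0.42 (SE 1.18) and 0.37 (SE 0.94). That of +1197 was -0.05 with the number of cells as the scale and -1.09 in the fit to thinned cells, a single random draw. The expected thinned shares of +1197 were 1.71%, 0.768%, 2.75% and 2.58% in runs 1 to 4, higher in both 24-hour runs. The log2 change of +4473 was 2.18 without run 1, -0.26 without run 2 and -0.11 without run 3. Whether one Jarid2 region differed from another in its change was not tested. Summed per gene, the signal was 188, 115, 202 and 213 CPM in runs 1 to 4, with a log2 change of 0.41 (SE 0.47, adjusted p = 0.789 by edgeR).

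**Figure D3:**
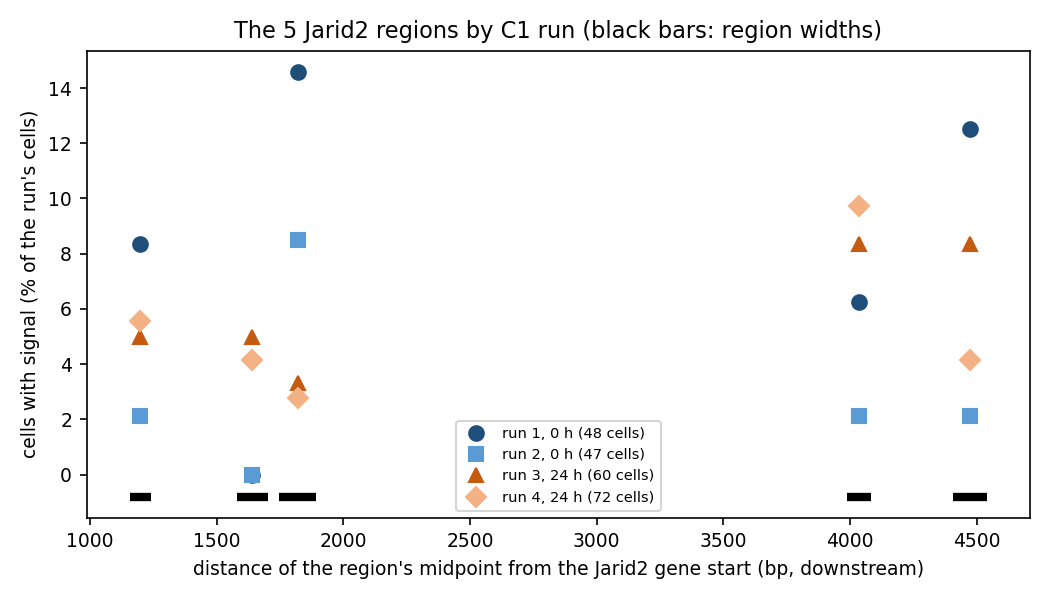
The 5 Jarid2 regions by the distance of their midpoints from the gene start (x axis, bp; black bars show their widths) and the share of each C1 run's cells with signal (y axis, percent). At +1819 the points of runs 1 and 2 are the higher ones, and at +1640 and +4036 those of runs 3 and 4.

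Rnf2, the main ubiquitin ligase of PRC1, had 1 region across its start, chr1:151500913-151501058. It was found in 22.9% and 8.51% of cells at 0 hours and in 11.7% and 12.5% at 24 hours. Run 1 was the highest and run 2 the lowest, so the 0-hour runs enclosed the 24-hour runs. The normalized level was 76.8 ± 20.0 CPM at 0 hours and 91.8 ± 15.4 CPM at 24 hours, and the log2 change was 0.23 (SE 0.67, 95% interval -1.12 to 1.57, adjusted p = 0.933 by edgeR). Ring1, the other ligase of the pair, was found in 2, 1, 4 and 2 cells at chr17:34024480-34024625, with a log2 change of 1.54 (SE 1.32) and an adjusted p of 0.693. Its region overlaps an untranslated exon, and the next region, at the start of H2-Ke6, was 3399 bp upstream of its start.

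Cbx2, a chromodomain reader of canonical PRC1, had a region at its start (chr11:119022921-119023075) and another in a coding exon (chr11:119026379-119026480). The start region was found in 8.33% and 6.38% of cells at 0 hours and in 13.3% and 5.56% at 24 hours. The coding-exon region was found in 10.4% and 4.26%, and then in 0% and 5.56%. In both, the 24-hour runs lay on either side of both or one of the 0-hour runs. In the coding-exon region the 0 in run 3 allows a share of up to 5%, above that of run 2, so the order of these runs is not set. The log2 changes were 0.55 (SE 0.90) and -0.38 (SE 1.23), with adjusted p of 0.869 and 0.941 by edgeR. Both directions turned with single runs. That of the coding-exon region also turned in the fit to thinned cells, at 1.14 with all 4 runs, which rests on a single random draw. The expected thinned shares of that region were 3.64%, 2.55%, 0% and 4.06% in runs 1 to 4. By log2 change, the start region was -0.42 without run 3. The coding-exon region was 0.54 without run 3, 0.13 without run 1 and -4.98 without run 4, which leaves no signal at 24 hours. Phc1, a polyhomeotic protein whose SAM domain lets PRC1 assemble into larger bodies, had 2 intronic regions, separated by fewer bases than either spans. They were found in 4, 1, 2 and 3 cells and in 2, 0, 1 and 3 cells, with 4 cells holding both. Their log2 changes were 0.23 (SE 1.21) and 1.28 (SE 1.61). The latter ranged from 0.12 without run 4 to 4.26 without run 1, which leaves no signal at 0 hours.

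Bmi1, the PRC1 partner best known for repressing the cell-cycle inhibitor locus Cdkn2a, had no assigned region. The region closest to its start on chromosome 2 (18677018 to 18686629, forward strand) lay 4678 bp upstream, at the start of the neighbouring gene Commd3, and was found in 1, 0, 1 and 3 cells. On the other side the closest lay 17089 bp downstream, at the start of Spag6, and was found in 14 cells. The matrix therefore gives no value for Bmi1 itself, and regions outside the matrix were not analysed here.

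By shares as deposited, runs 1 and 2 were each higher than runs 3 and 4 in 3 of the 16 member regions, Ezh2, Eed -42304 and Jarid2 +1819, as in 33.7% of all regions. Runs 3 and 4 were each higher than runs 1 and 2 in 2, Jarid2 +1640 and +4036, and in 8.59% of all regions. Of these 5 regions, Eed -42304 and Jarid2 +1640 were at 0 in at least 1 run, and the limits of those zeros reach the shares of the other time-point, so their order is not set by these counts. Only Ezh2 of the 5 reached 5 cells in both time-points, and the filter bears on the direction of the others, Jarid2 +1819 and +4036 included. After thinning, the members with the higher 0-hour runs were 2, Ezh2 and Jarid2 +1819, against 26.5% of all regions. Those with the higher 24-hour runs were then 5, Eed +355, Suz12 and Jarid2 +1197, +1640 and +4036, against 17.4% of all regions. By normalized CPM the numbers were 3 and 6 of 16, against 25.7% and 19.3% of all regions.

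The fitted log2 change was above 0 in 12 of the 16 member regions (75%), with a median of 0.45, but in 8 of 16 with the number of cells per run as the scale. The filter bears on this count, since the 4 members that reached 5 cells at 24 hours only were above 0. The 3 that reached it at 0 hours only were below 0. Over all regions 48.0% were above 0, with a median of -0.06, and over the 8786 regions within 1 kb of the start of their gene 64.6% were, with a median of 0.33, so start-site regions as a whole also lay above 0. With Jarid2 +1640 set at the lower bound that a floor of 3 counts over the 0-hour group gives, the median was the same. Summed per gene, 8 of 9 member genes had values above 0, with a median of 0.41, and 4 of 9 with the number of cells as the scale. Over all 9900 genes 56.5% were above 0, with a median of 0.15, or 0.29 for genes read from regions within 5 kb only. That scale moved the median over all genes to -0.33. Ezh2 was the gene with a value below 0, and its adjusted p of 0.621 was the smallest of the 9 by edgeR's quasi-likelihood test.

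**Figure D4:**
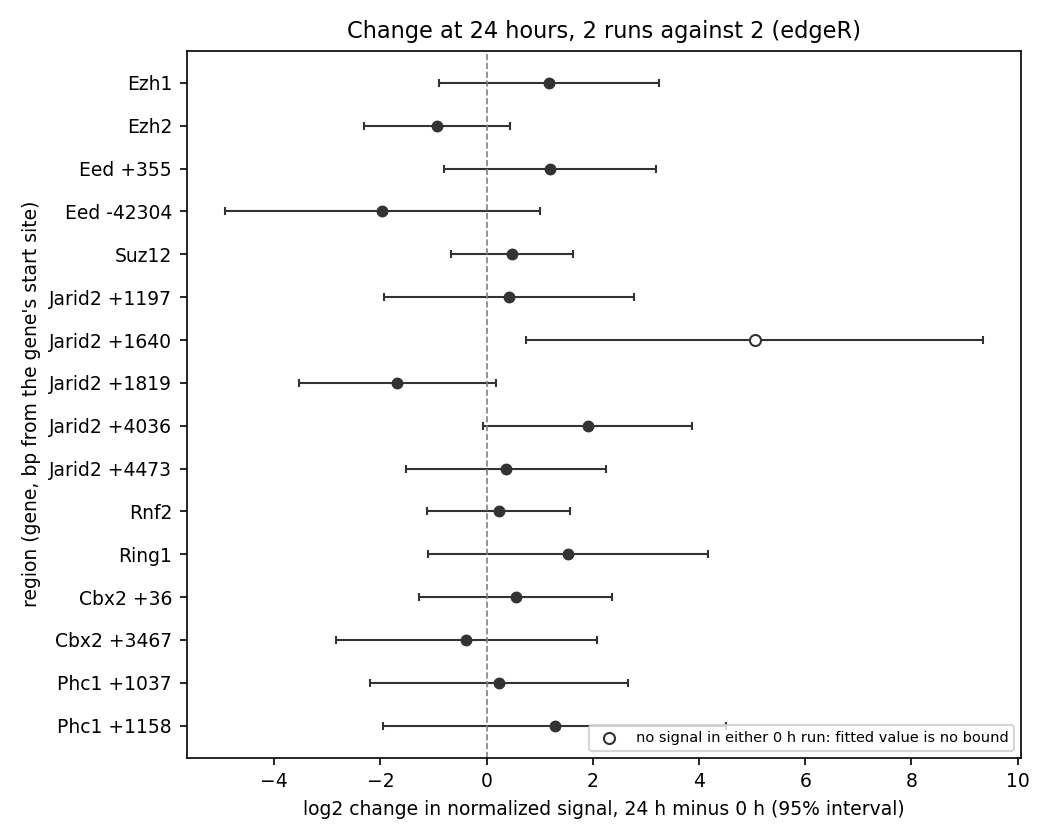
Fitted log2 change in normalized signal, 24 hours minus 0 hours, for the 16 member regions, with 95% intervals from edgeR (2 runs per time-point, not adjusted for the number of regions). All intervals but that of Jarid2 +1640 (open circle) include 0, and its fitted value rests on a group with no signal and is no bound.

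The wider Polycomb family was read from a list of 35 further genes, of which 27 had a region (59 regions in all). With edgeR, 0 of the 27 passed the test in either direction and 0 had an unadjusted p under 0.05, against 12.5% of all genes, and with DESeq2 0 of all genes passed. Values were below 0 for 9 and above 0 for 18 (66.7%), with a median of 0.11 against 0.15 over all genes. The lowest were Phf19, a PRC2 partner that binds methylated H3 lysine 36, with 121, 94.0, 64.7 and 51.3 CPM in runs 1 to 4 and a log2 change of -0.90 (SE 0.68), and L3mbtl2, a subunit of a variant PRC1, at -0.86 (SE 0.60). The highest were Pcgf6, the ring-finger partner in that variant PRC1, at 2.11 (SE 1.16), and Cbx7, another chromodomain reader, at 1.74 (SE 1.53). Pcgf6 had 12 counts in run 4, against 2, 1 and 2 in runs 1 to 3. The smallest adjusted p of the 27 was 0.456, that of Pcgf6.

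**Figure D5:**
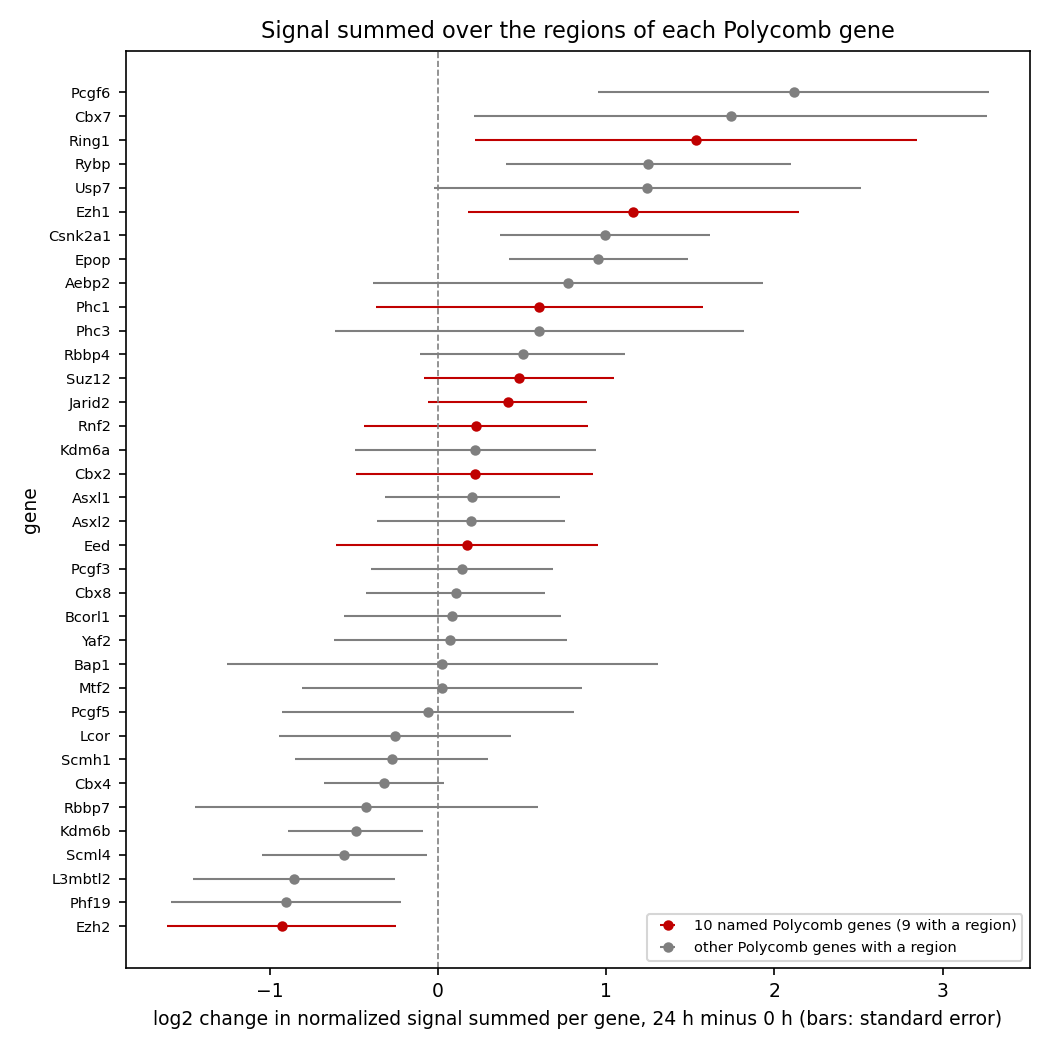
Fitted log2 change, 24 hours minus 0 hours, in signal summed over the regions of each Polycomb gene, with standard errors as bars; red, the 9 named genes with a region; grey, 27 other Polycomb genes. Ezh2 (-0.93) is the lowest and Pcgf6 (2.11) the highest, and none passed the test.

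Among the 8786 regions within 1 kb of a gene start, those whose shares over the 4 runs were most like Suz12 lay at Rps3a1, Coq7 and H2afz. Their mean absolute differences from Suz12 were 0.417, 0.868 and 0.879 percentage points over the 4 runs. Rps3a1, which encodes a ribosomal protein, was found in 20.8%, 14.9%, 18.3% and 19.4% of the cells of runs 1 to 4. The likeness covers 4 values per region and no more.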

How the data were processed

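Single-cell ATAC-seq was measured on B3 pre-B cells in 4 Fluidigm C1 runs. The authors mapped reads to mm10 with Bowtie2, removed duplicates with Picard, called peaks on bulk samples with HOMER and deposited whole-number counts per region and cell, without normalization and with no value above 2. What was done with higher values was not given in these sources. The matrix used here holds fewer regions than the study describes, and 1 more cell at 0 hours and 1 fewer at 24 hours. Bulk samples were not analysed here.

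Counts were summed per run, since cells of a run are not replicates. They were tested with edgeR 4.0.16 (R 4.3.3), using TMM factors, the quasi-likelihood test and Benjamini-Hochberg adjustment over all regions or genes, at 0.05. DESeq2 1.42.0, run totals, numbers of cells, detected or not detected, thinned cells (the 10th percentile of counts per cell), other filters, leaving out each run and, added after the data were seen, a replicate block were alternatives. Regions were assigned by midpoint to the nearest GENCODE vM21 start within 50 kb. Copies were counted with BLAST 2.17.0. Intervals are exact Clopper-Pearson at 95% (SciPy 1.17.1) and cover counting error only, and a count of 0 was given a limit of 3 counts. Doublets were not called, because each capture site had been inspected.

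Every member gene and region is named, and of the other Polycomb genes the 2 furthest in each direction. The 3 regions most like the best-detected member were named by mean absolute difference of shares. The members, lists and tests were chosen with earlier results of these data known. One pre-B marker is not reported here.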

Additional observations from a re-analysis of the deposited data

How the results depend on the processing

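No member region or gene passed the test under any alternative. Where 1 run was left out, the spread came from the other time-point alone and the lone run was assumed to vary like it, so those fits say little about stability. Over all regions the calls ranged from 0 (DESeq2, detected or not detected, thinned cells) to 341 higher at 0 hours and 456 higher at 24 hours without run 3, where the smallest adjusted p of a member was 0.148 for regions and 0.229 for genes. Of 108 recomputed log2 changes of member genes, 101 kept their direction and 7 turned. With the number of cells as the scale, Eed was -0.18, Jarid2 -0.10, Rnf2 -0.28 and Cbx2 -0.23, and this scale lowers the median over all genes to -0.33. Ezh1 was -0.25 in the fit to thinned cells, a single random draw, while its expected thinned shares were 3.37%, 0%, 0.425% and 5.71% in runs 1 to 4. Its log2 change ranged from -0.59 to 5.78 when 1 run was left out. The highest value came without run 1, which leaves a 0-hour group with no signal. Eed ranged from -0.49 to 1.09 when 1 run was left out. The cause was not tested. Member regions with both 24-hour runs higher were 2 as deposited, 5 after thinning and 6 by normalized CPM, while the share of all regions went from 8.59% to 17.4% and 19.3%. With a filter of 10% of cells, 3 member regions remained to be tested. The sample labels number the runs 1 to 4, but the matrix columns number them 1 and 2 within each time-point. Nothing says that these numbers pair the runs, and over all regions the differences between the numbered runs at 0 and 24 hours had a correlation of -0.02. A replicate block on this number, chosen after seeing the data, called 0 member regions and 0 member genes, and over all genes 2 higher at 0 hours and 6 higher at 24 hours, against 8 and 18 without it. The sparsest members were found in 6 of 227 cells, and 5 of 16 regions had no signal in at least 1 run.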

Other observations

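Cells with signal in any member region were deeper than the rest in each run. Their median counts were 3390, 1927, 2272 and 1970 in runs 1 to 4, against 2204, 1385, 1085 and 1354 in cells with none. Any member region was found in 70.8%, 59.6%, 58.3% and 62.5% of the cells of these runs. The mean number of member regions per cell was 1.625, 0.851, 1.13 and 1.08, and after thinning 0.494, 0.445, 0.600 and 0.542, so the highest run was run 1 before thinning and run 3 after it. At most 6 of the 16 regions were found in 1 cell, in run 4.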
